A study of Mus musculus with 12 samples.

Results

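The replication-dependent core histone genes encode the H2A, H2B, H3 and H4 proteins around which DNA is wrapped. They were taken here as every gene of the tables whose name is H2ac, H2bc, H3c or H4c followed by digits only. The rule found 62 genes of the 41079 measured, made up of 18 H2A, 19 H2B, 12 H3 and 13 H4 genes. The RNA came from mouse embryonic stem cells, which are pluripotent and derive from the early embryo, and was sequenced in 4 groups of 3 libraries. The groups were wild type (WT) without treatment, WT given etoposide, knockout (KO) of Bod1L whose label names tamoxifen, and that knockout with tamoxifen given etoposide. Etoposide traps topoisomerase II on cut DNA. The Bod1l protein works with SETD1A, a methyltransferase for histone H3, and the series is concerned with how DNA damage repair genes are expressed. The labels name tamoxifen for knockout libraries only, so knockout and tamoxifen cannot be told apart, and they give no clone, Cre driver, dose or time.

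Levels are in TPM, a transcript abundance that is scaled by the gene's length and to one fixed total in each library. Aligned depth was 5.23 to 7.76 gigabases per library, at which 1 TPM over a gene of 500 bases corresponds to 967 to 1440 aligned bases. Bod1l stood at 46.5 to 51.1 TPM in the 6 wild-type libraries and at 11.2 to 13 TPM in the 6 knockout libraries. The labelled cell type was checked against 7 embryonic stem cell genes, whose sum was 6809 to 7816 TPM in every library. The 7 feeder fibroblast genes summed to 4.76 to 7.50 TPM.

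Core histone genes are transcribed when DNA is copied. Most of their messages have no introns and no poly(A) tail and end just after a short stem-loop, which the stem-loop binding protein SLBP holds and the U7 snRNP helps to cut. Some core histone genes also give polyadenylated messages from a site further downstream. The libraries were made from RNA selected by its poly(A) tail, a step that recovers the tailless form poorly, and the values below are levels in the selected RNA. The genes lie in clusters, and H2A and H2B genes often stand back to back over a shared promoter interval.

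The stem-loop is shown first because the tailless message ends just past it, and the poly(A) selection bears on that form. It was searched for in the GENCODE M21 transcripts of 57 members that could be matched, as 6 bases, a loop of 4 and 6 complementary bases, and 39 members held it, in 8 versions. Capitals mark the loop. The first is the version of 21 H2A, H2B and H3 genes, among them H2ac11 and H3c15. The second is that of 5 H2B and H3 genes, the third that of 6 H4 genes, the fourth that of H4c9 and H4c14, and the fifth was found in H3c8 alone.
common H2A, H2B and H3 stem-loop: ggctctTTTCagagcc
second H2B and H3 stem-loop: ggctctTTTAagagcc
common H4 stem-loop: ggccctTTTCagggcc
H4c9 stem-loop: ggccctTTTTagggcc
H3c8 stem-loop: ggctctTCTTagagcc
The H2A, H2B and H3 versions printed share both stem arms and differ in the loop, and both H4 versions have another stem. The 16-base search pattern occurred in 0.078% of 141767 GENCODE transcripts. That pattern leaves some positions open, so it admits sequences besides the 8 versions, and complementary arms were checked in members only. H2bc4, H2bc21 and H2bc23 had transcript models over 1 kb without one. Another 15 members had shorter models without one, some of them shorter than the gene's span in the deposited data. A stem-loop beyond the end of such a model could not be found, so 39 may be too few.

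The sum over all 62 genes was higher in the knockout than in wild type, without and with etoposide. It was 68.8, 79.2 and 68.8 TPM in untreated wild type and 56.9, 57.3 and 63.1 TPM in treated wild type. It was 113, 113 and 110.1 TPM in the untreated knockout and 129, 126 and 114 TPM in the treated knockout. Every knockout library lay above every wild-type library, and treated wild type was the lowest of the 4 groups. The ratio of geometric means, knockout over wild type, was 1.55 without and 2.08 with etoposide. A sum over genes chosen with earlier results known was given no test. In RNA from whole cultures, fewer cells expressing a gene and less RNA per cell cannot be told apart.

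The families differed in how far the groups lay apart. H2B genes, whose protein pairs with H2A in the nucleosome, summed to 13.2, 16.5 and 15.6 TPM in untreated wild type, 10.5, 12.5 and 14.2 TPM in treated wild type, 36.2, 33.9 and 23.5 TPM in the untreated knockout and 31.6, 32.6 and 33.2 TPM in the treated knockout. The H2B ratio between genotypes was 2.04 without and 2.64 with etoposide, and 1.51 and 2.22 when its most abundant gene, H2bc4, was left out. Knockout and wild-type H2B sums did not overlap in any of these 4 comparisons. H4 genes summed to 12.7, 13.7 and 10.5 TPM in untreated wild type, 12.5, 12.8 and 11.7 TPM in treated wild type, 23.7, 25.7 and 23.2 TPM in the untreated knockout and 26.6, 24.3 and 26.3 TPM in the treated knockout. H4, the partner of H3, gave ratios of 1.98 and 2.09 without overlap. H3 genes summed to 10.6, 10.4 and 13.5 TPM in untreated wild type, 12.9, 7.80 and 12.4 TPM in treated wild type, 17.8, 17.0 and 22.4 TPM in the untreated knockout and 20.7, 22.3 and 23.0 TPM in the treated knockout. Their ratios were 1.66 and 2.04, again without overlap.

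H2A was the most abundant family, with 37.4% of the mean sum, and the one whose untreated genotypes overlapped. Its sums were 32.3, 38.7 and 29.2 TPM in untreated wild type and 35.2, 36.2 and 41.0 TPM in the untreated knockout, a ratio of 1.13. With etoposide they were 21.1, 24.2 and 24.8 TPM in wild type and 50.1, 47.3 and 31.5 TPM in the knockout, a ratio of 1.81, and there every knockout library was higher. Part of this was a single gene, H2ac25, and without it the H2A ratios were 1.01, with overlap, and 1.5, without overlap. The difference between families was not tested.

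**Figure D1:**
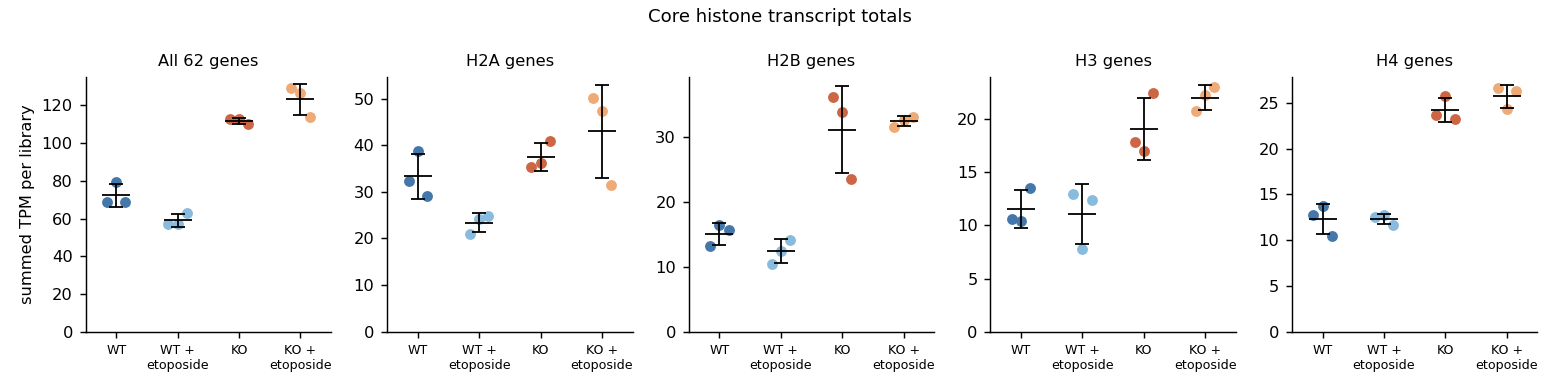
Summed TPM per library (y axis) of all 62 core histone genes and of the H2A, H2B, H3 and H4 genes in the 4 groups (x axis). Points are libraries, the long bar is the mean and the whisker the SD of 3. Knockout libraries lie above wild-type libraries in the sum of all 62 (110.1 to 129 against 56.9 to 79.2 TPM), and the untreated H2A sums overlap.

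Single genes were tested where the mean over the 12 libraries was at least 1 TPM, which 26 of the 62 reached, 7 H2A, 7 H2B, 6 H3 and 6 H4. The last genes inside that limit were H3c15 and H3c11, both at 1.01 TPM, and the first outside were H3c6 at 0.93 and H2bc9 at 0.91. The test was limma on log2(TPM + 1) over all 14107 genes past the limit, with Benjamini-Hochberg adjustment, and calls were made at an adjusted p under 0.05. Changes on this scale understate those of genes at a few TPM. The median SE of the 26 was 0.25, against 0.07 for all genes tested, so that small differences of single histone genes were not detectable at this depth.

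In untreated cells, 8 of the 26 genes rose in the knockout and none fell. That is 30.8%, beside 28.1% higher and 21.5% lower among all genes tested. The share that rose was near that of all genes, while none of the 26 fell. The limit of 1 TPM itself bears on these counts. Of the 26 genes, 10 averaged under 1 TPM over the 6 wild-type libraries and at least 1 over the 6 knockout libraries, and none the reverse, so those 10 were tested because the knockout was high. They include 5 of the 8 genes called without etoposide (H2bc18, H2bc21, H2bc27, H3c15 and H4c12) and 7 of the 11 called with it (those 5, H2ac13 and H4c8), and their calls are not independent of the limit. Of the 16 genes at 1 TPM or more in both genotypes, 3 rose without etoposide (H2bc4, H3c8 and H4c9) and 4 with it (those and H3c10). Beside these stand 28.1% and 22.5% higher among all genes tested. The share of the 16 was under that of all genes without etoposide and near it with etoposide. With no limit, limma called 10 of the 62 higher without etoposide (16.1%) and none lower, beside 14.5% and 10.9% of all genes, and 14 higher with it (22.6%) and none lower, beside 11.3% and 11.1%. Of the 8 and 11 genes, 6 and 10 were also called there. Without etoposide, 9 of the 26 were higher and none lower at an unadjusted p under 0.05. The share of all genes at that unadjusted limit was not counted, here or below, so such counts are not read as an excess. The median change was 0.26, beside 0.04 for all genes. With etoposide 11 of 26 rose (42.3%) and none fell, beside 22.5% higher and 21.7% lower among all genes. There 14 were higher at an unadjusted p under 0.05, and the median change was 0.57 beside 0.02. The medians of 0.26 and 0.57 run over all 26 genes, among them the 10 tested because the knockout was high. They are therefore not independent of the limit either. The 8 that rose without etoposide were H2bc4, H2bc18, H2bc21, H2bc27, H3c8, H3c15, H4c9 and H4c12, and each of them also rose with etoposide, where H2ac13, H3c10 and H4c8 joined them. None of the 7 H2A genes tested rose without etoposide. Wild-type and knockout libraries are not shared between these comparisons. The SE of each gene and the limit of 1 TPM do come from all 12 libraries, so the comparisons are not fully independent.

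**Figure D2:**
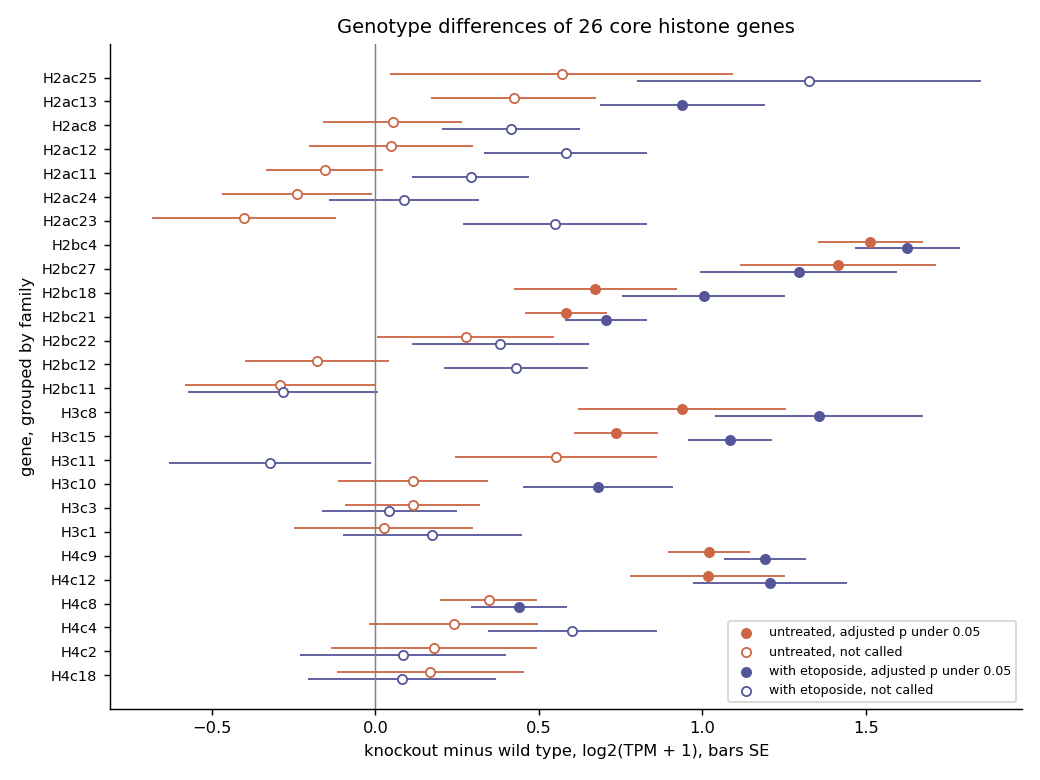
Difference between knockout and wild type in log2(TPM + 1) (x axis) for the 26 core histone genes tested (y axis, grouped by family), without etoposide (orange) and with it (blue). Bars are the SE of the fit and filled points have an adjusted p under 0.05, 8 without and 11 with etoposide, all of them above 0.

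H2bc4, an H2B gene of the second chromosome 13 cluster (chr13:23868182-23876805, GRCm39), was the most abundant member and the one with the lowest p. It stood at 4.22, 4.90 and 4.18 TPM in untreated wild type and 3.10, 3.03 and 4.45 TPM in treated wild type. In the knockout it stood at 14.9, 18.5 and 11.0 TPM untreated and 12.9, 13.9 and 11.8 TPM treated. The highest wild-type library was at 4.90 TPM and the lowest knockout library at 11.0 TPM. The change was 1.51 ± 0.16 (SE), adjusted p = 1.09e-05, without etoposide and 1.63 ± 0.16 (SE), adjusted p = 7.46e-06, with it (limma). Its span covers several kilobases, and its transcript model is without the stem-loop.

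H4c9 (chr13:22225130-22225532), the most abundant H4 gene, was at 5.29, 5.42 and 3.44 TPM in untreated wild type, 4.39, 4.02 and 4.63 TPM in treated wild type, 9.65, 10.2 and 11.6 TPM in the untreated knockout and 11.8, 10.6 and 11.2 TPM in the treated knockout. The highest wild-type library was at 5.42 TPM and the lowest knockout library at 9.65 TPM. The change was 1.02 ± 0.13 (SE), adjusted p = 3.45e-05, without etoposide and 1.19 ± 0.13 (SE), adjusted p = 1.24e-05, with it (limma). H4c12, another H4 gene of the same cluster, rose by 1.02 ± 0.24 (SE), adjusted p = 0.00355, and 1.21 ± 0.24 (SE), adjusted p = 0.00143 (limma). H4c8 rose in the comparison with etoposide (0.44 ± 0.15 (SE), adjusted p = 0.0304, limma) and was at 0.35 ± 0.15 (SE) without it (adjusted p = 0.0695). The call of H4c8 was lost without replicate 3 of treated wild type, without replicate 1 or 3 of the treated knockout and under 2 other alternatives (adjusted p up to 0.124).

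H3c15 (chr3:96145424-96146300), an H3 gene on chromosome 3, was among the lowest members tested but had a narrow spread. It was at 0.249, 0.484 and 0.529 TPM in untreated wild type, 0.524, 0.266 and 0.305 TPM in treated wild type, 1.41, 1.33 and 1.34 TPM in the untreated knockout and 1.83, 2.2 and 1.64 TPM in the treated knockout. No wild-type library exceeded 0.529 TPM and no knockout library was under 1.33 TPM. The change was 0.74 ± 0.13 (SE), adjusted p = 5.31e-04, without etoposide and 1.08 ± 0.13 (SE), adjusted p = 3.31e-05, with it (limma). H3c15 reached the limit of 1 TPM through the knockout alone, so these p-values are not independent of its selection, and it was also called with no limit. Of its 100-base windows 61.6% also occur in transcripts of other genes, so its level depends on how shared reads were divided. H3c8 (chr13:23719588-23720079), the most abundant H3 gene, was at 3.60, 1.62 and 4.60 TPM in untreated wild type, 3.90, 1.10 and 3.64 TPM in treated wild type, 6.21, 7.17 and 7.07 TPM in the untreated knockout and 6.80, 10.1 and 8.24 TPM in the treated knockout. The genotypes did not overlap, and replicate 2 was the lowest library of both wild-type groups. H3c8 rose by 0.94 ± 0.32 (SE), adjusted p = 0.0274, and 1.36 ± 0.32 (SE), adjusted p = 0.00447 (limma), the first of which was lost without replicate 2 of wild type or replicate 2 or 3 of the knockout (adjusted p up to 0.118 over the alternatives). H3c10 rose in the comparison with etoposide (0.68 ± 0.23 (SE), adjusted p = 0.0308, limma), a call lost under 5 of 18 alternatives, among them without replicate 1 or 2 of treated wild type or replicate 3 of the treated knockout (adjusted p up to 0.129).

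Among the other H2B genes, H2bc27 (chr11:58839737-58840198) was at 1.02, 0 and 0.661 TPM in untreated wild type, 0.52, 1.49 and 1.28 TPM in treated wild type, 3.98, 3.24 and 2.01 TPM in the untreated knockout and 3.39, 3.07 and 6.14 TPM in the treated knockout. Knockout libraries began at 2.01 TPM, above the highest wild-type library. It rose by 1.41 ± 0.30 (SE), adjusted p = 0.00203, and 1.29 ± 0.30 (SE), adjusted p = 0.00427 (limma), and the second was lost with a pseudocount of 0.1 (adjusted p = 0.0546). H2bc21 (chr3:96128435-96131057) was at 0.45, 0.853 and 0.603 TPM in untreated wild type, 0.717, 0.65 and 0.517 TPM in treated wild type, 1.65, 1.31 and 1.36 TPM in the untreated knockout and 1.85, 1.67 and 1.45 TPM in the treated knockout. It rose by 0.58 ± 0.13 (SE), adjusted p = 0.00223, and 0.70 ± 0.13 (SE), adjusted p = 7.56e-04 (limma), and none of its windows is shared with another gene. H2bc18 rose by 0.67 ± 0.25 (SE), adjusted p = 0.0412, and 1.00 ± 0.25 (SE), adjusted p = 0.00638 (limma), and the first was lost under 10 of 18 alternatives, among them without replicate 1 or 3 of wild type, 1 of treated wild type, 1 of the knockout, or 2 or 3 of the treated knockout (adjusted p up to 0.175). H2bc11, H2bc12 and H2bc22 were at -0.29 ± 0.29, -0.18 ± 0.22 and 0.28 ± 0.27 (SE) without etoposide, and none passed the test. The 95% interval of H2bc22, -0.31 to 0.87, holds the changes of H2bc18 and H2bc21.

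**Figure D3:**
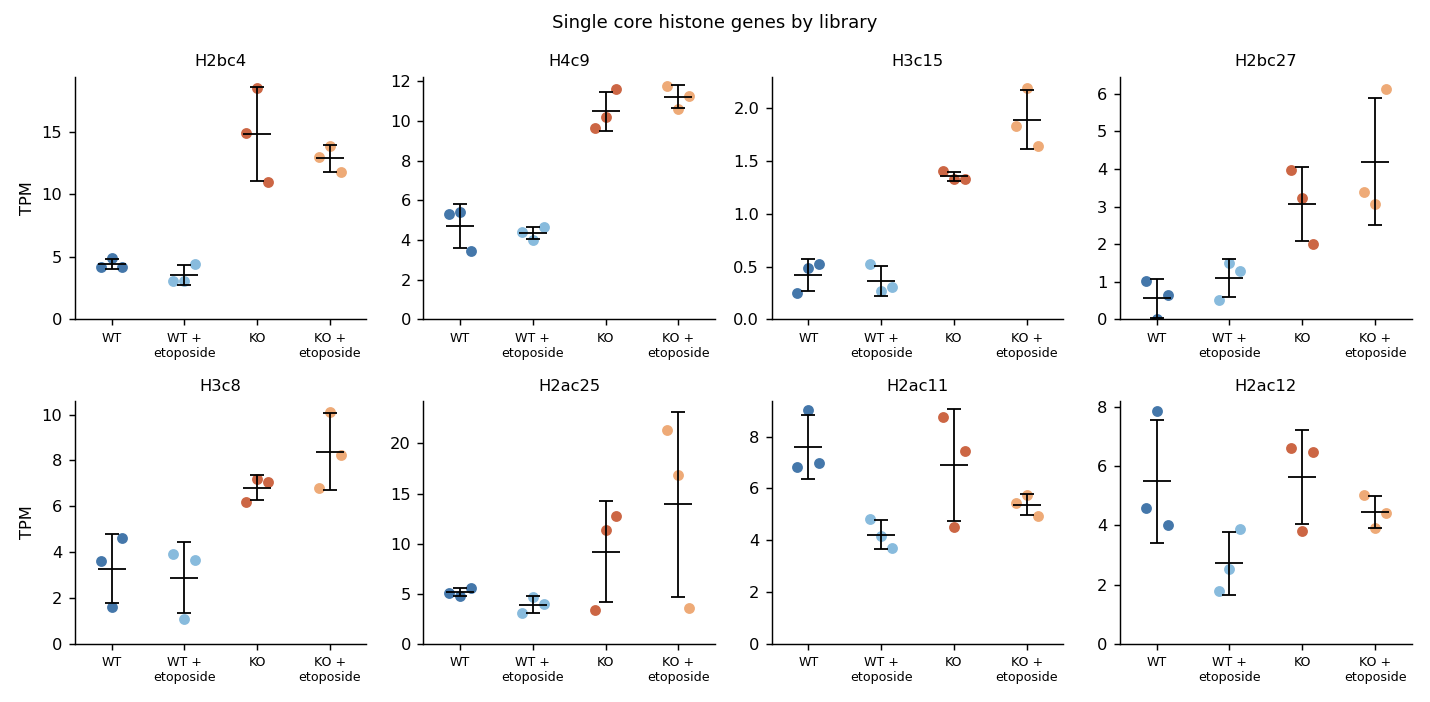
TPM per library (y axis, each panel with its own scale from 0) of 8 core histone genes in the 4 groups (x axis), with the mean and SD of 3. H2bc4, H4c9, H3c15, H2bc27 and H3c8 do not overlap between genotypes, H2ac25 varies between knockout libraries from 3.42 to 21.3 TPM, and H2ac11 and H2ac12 have their lowest group mean in treated wild type.

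H2ac25 (chr11:58845511-58846018), the most abundant H2A gene, was the least reproducible member. It was at 5.10, 4.77 and 5.55 TPM in untreated wild type and 3.06, 4.70 and 3.97 TPM in treated wild type. In the knockout it was at 3.42, 11.4 and 12.7 TPM untreated and 21.3, 16.9 and 3.54 TPM treated. One library of each knockout group lay at or under the wild-type level and the other two lay well above it. The differences were 0.57 ± 0.53 (SE), adjusted p = 0.392, and 1.33 ± 0.53 (SE), adjusted p = 0.0586 (limma), neither called. Its whole span lies inside that of Trim17 on the same strand, whose own mean was 1.05 TPM, so reads of the pair cannot be separated from these tables.

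Fewer of the 26 genes were called for etoposide than for genotype, though the sums did not all follow that order. For the H2A sum etoposide in wild type gave a ratio of 0.703, with every treated library lower. The H2A genotype ratio without etoposide was 1.13, with overlap. The H2B, H3 and H4 sums of treated and untreated wild type overlapped. In wild type, 2 of the 26 genes fell (7.69%) and none rose, beside 13.5% lower and 20.8% higher among all genes tested. At an unadjusted p under 0.05, 4 were lower and none higher, all of them H2A genes, with no share of all genes counted. Both that fell are H2A genes at one end of the first chromosome 13 cluster. H2ac11 (chr13:22226648-22227119) was at 6.81, 9.04 and 6.97 TPM in untreated and 4.81, 4.15 and 3.68 TPM in treated wild type, and at 8.76, 4.50 and 7.45 TPM in the untreated and 5.43, 5.73 and 4.94 TPM in the treated knockout. It fell in wild type (-0.72 ± 0.18 (SE), adjusted p = 0.00789, limma), while the knockout groups overlapped (-0.27 ± 0.18 (SE), adjusted p = 0.304).

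H2ac12 (chr13:22219292-22219813) was at 4.59, 7.87 and 4.01 TPM in untreated and 1.78, 2.51 and 3.88 TPM in treated wild type, and at 6.62, 3.80 and 6.49 TPM in the untreated and 5.01, 3.91 and 4.41 TPM in the treated knockout. The wild-type groups did not overlap, though their nearest libraries, at 4.01 and 3.88 TPM, were close. It fell in wild type (-0.79 ± 0.25 (SE), adjusted p = 0.0271, limma), a call lost without replicate 2 of untreated or replicate 1 or 2 of treated wild type and with no filter (highest adjusted p = 0.112). In the knockout the change of H2ac12 was -0.26 ± 0.25 (SE), adjusted p = 0.499. The genotype difference of H2ac12 was 0.05 ± 0.25 (SE), adjusted p = 0.888, without etoposide, with a 95% interval of -0.50 to 0.59. With etoposide it was 0.58 ± 0.25 (SE), adjusted p = 0.078. H2ac11 and H2ac12 share 76.2% and 87.9% of their 100-base windows with other genes.

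In the knockout no core histone gene passed the test for etoposide in either direction with limma, beside 14.5% higher and 10.5% lower among all genes. At an unadjusted p under 0.05, 3 did (H2ac8, H3c15 and H4c8, all higher), with no share of all genes counted. Without replicate 2 of the untreated knockout 1 rose and 3 fell. The interaction, meaning the etoposide change in the knockout minus that in wild type, was called for none of the 26. Beside this stand 0.0709% higher and 1.16% lower among all genes. At an unadjusted p under 0.05 it was found for 1, H2ac23, again with no such share counted. For H2ac11 that difference was 0.45 ± 0.25 (SE), adjusted p = 0.562, and for H2ac12 0.53 ± 0.35 (SE), adjusted p = 0.632 (limma). The fall in wild type was thus not shown to differ from the change in the knockout.

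Over all 62 genes, without a filter or a model, every knockout library lay above every wild-type library for 15 genes without etoposide (24.2%) and below for 1, H2ac4. Among the 27304 genes above 0 in any library these shares were 20.9% above and 14.8% below. With etoposide 22 genes lay above (35.5%) and none below, beside 18.1% above and 16.1% below. The 36 genes under 1 TPM on average summed to 11.7, 12.6 and 10.6 TPM in untreated wild type, 12.5, 10.2 and 11.8 TPM in treated wild type, 19.5, 21.9 and 14.5 TPM in the untreated knockout and 23.8, 22.7 and 20.2 TPM in the treated knockout. Their genotype ratios were 1.58 and 1.94, both without overlap. Etoposide in wild type placed H4c17 above and 5 genes below (H2ac11, H2ac12, H2ac25, H2bc8 and H2bc13), beside 18.9% and 11.2% of all genes. In the knockout it placed 8 above and 1 below, H2bc15, beside 14.8% and 10.5%.

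By position the 62 genes form 5 clusters, taking neighbours within 500 kb as one. The first block on chromosome 13 (chr13:21899881-22227828) holds 22 genes and 42.8% of the mean sum. Its sums were 36.4, 47.5 and 30.6 TPM in untreated wild type, 25, 26 and 28.1 TPM in treated wild type, 52.1, 38.7 and 51.3 TPM in the untreated knockout and 46.4, 43.7 and 45.1 TPM in the treated knockout. It was the block with overlapping untreated genotypes (ratio 1.25) and with treated wild type wholly below untreated wild type (0.703). With etoposide its genotypes stood apart, at 1.71. The second block (chr13:23715214-24118896, 26 genes) summed to 23.8, 21.5 and 28.3 TPM in untreated wild type, 24.2, 20.8 and 25.1 TPM in treated wild type, 42.6, 48.7 and 35.7 TPM in the untreated knockout and 45.8, 49.7 and 49.7 TPM in the treated knockout, with ratios of 1.72 and 2.08 without overlap.

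The chromosome 3 cluster (chr3:96127201-96177508, 10 genes) is small in abundance and had the highest untreated ratio. It summed to 2.56, 3.54 and 3.60 TPM in untreated wild type, 4.13, 3.92 and 4.67 TPM in treated wild type, 9.94, 8.91 and 7.82 TPM in the untreated knockout and 11.6, 12.4 and 9.19 TPM in the treated knockout. The ratios were 2.77 and 2.60, and here treated wild type lay above untreated wild type (1.32). Its 3 genes tested, H2bc18, H2bc21 and H3c15, were called in the knockout, and all of them reached the limit of 1 TPM through the knockout libraries. The chromosome 11 cluster (chr11:58839737-58846018) holds H2bc27, H2bc26 and H2ac25, with ratios of 2.08 and 3.46 that carry the spread of H2ac25. H4c16 stands alone on chromosome 6 and was at 0 in 3 wild-type libraries. Differences between clusters were not tested.

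**Figure D4:**
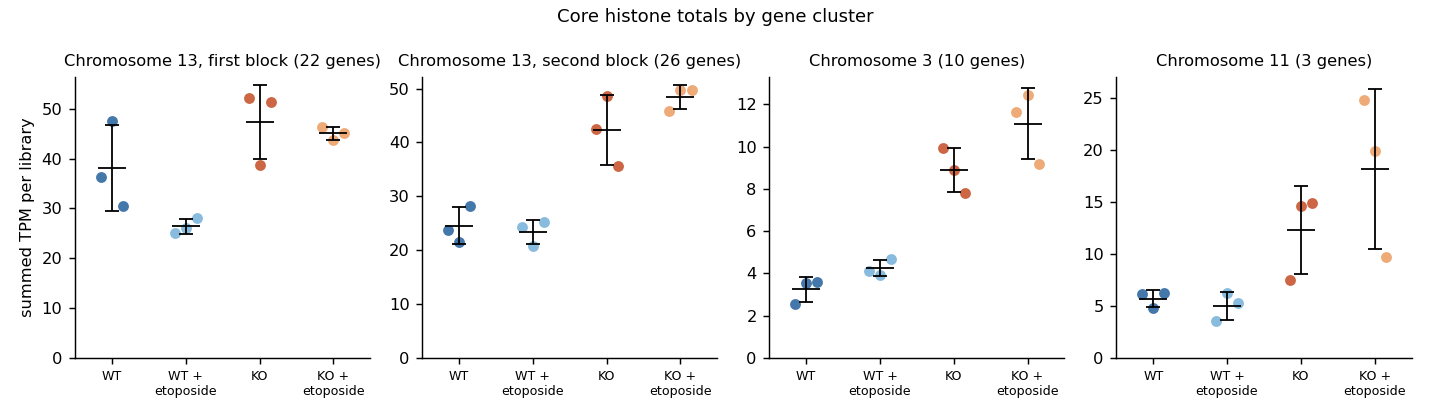
Summed TPM per library (y axis, each panel with its own scale from 0) of the core histone genes of 4 chromosomal clusters in the 4 groups (x axis), with the mean and SD of 3. The untreated genotypes overlap in the first chromosome 13 block and stand apart in the other 3 clusters.

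In 13 places an H2A and an H2B gene start back to back, 163 to 280 bases apart. Both genes of a pair averaged at least 1 TPM in 2 of the 13 pairs, so most of these levels are low. The H2A gene had the higher mean TPM in all 4 groups in 7 pairs, the H2B gene in 3, and the order was mixed or tied in the other 3. In the pair of H2bc4 the H2B gene was the higher, with H2bc4 at 8.90 TPM and its H2A neighbour H2ac6 at 0.199 TPM. H2ac6 was at 0, 0 and 0.838 TPM in untreated wild type and 0, 0.563 and 0 TPM in the untreated knockout, and these overlap, unlike those of H2bc4. H2bc21, which was called, likewise exceeded its neighbour H2ac20 (1.09 against 0.198 TPM), and H2bc22, which was not, exceeded H2ac22 (1.48 against 0.516 TPM). In the pairs of H2ac11 with H2bc11 and of H2ac12 with H2bc12 the H2A gene was the higher, at 6.02 against 1.27 and 4.57 against 1.29 TPM. H2bc11 and H2bc12 were not called for etoposide in wild type (-0.34 ± 0.29 (SE), adjusted p = 0.403, and -0.37 ± 0.22 (SE), adjusted p = 0.229, limma).

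The promoter windows of 4 genes are printed because the results turn on them: H4c9, H2ac11, H2ac12, and H2ac6, whose window is the interval shared with H2bc4. They come from RefSeq on GRCm38.p6, from 250 bases before to 50 after the annotated start, on the minus strand at chr13:22041313-22041612 for H4c9, chr13:22042900-22043199 for H2ac11, chr13:22035594-22035893 for H2ac12 and chr13:23683910-23684209 for H2ac6. Capitals mark exact matches, on either strand, to TATAAA, to CCAAT and to the octamer ATTTGCAT, none of which contains another.
H4c9: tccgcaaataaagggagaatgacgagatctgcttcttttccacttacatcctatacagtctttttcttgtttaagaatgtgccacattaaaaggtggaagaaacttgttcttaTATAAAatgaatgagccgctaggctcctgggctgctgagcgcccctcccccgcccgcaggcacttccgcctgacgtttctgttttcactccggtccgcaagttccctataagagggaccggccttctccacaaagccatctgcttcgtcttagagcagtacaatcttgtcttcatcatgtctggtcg
H2ac11: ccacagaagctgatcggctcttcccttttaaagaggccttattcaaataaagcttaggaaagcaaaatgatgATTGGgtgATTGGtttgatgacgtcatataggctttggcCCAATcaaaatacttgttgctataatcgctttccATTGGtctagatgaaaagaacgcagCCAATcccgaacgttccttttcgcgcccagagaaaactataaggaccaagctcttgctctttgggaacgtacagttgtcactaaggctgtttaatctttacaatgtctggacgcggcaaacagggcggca
H2ac12: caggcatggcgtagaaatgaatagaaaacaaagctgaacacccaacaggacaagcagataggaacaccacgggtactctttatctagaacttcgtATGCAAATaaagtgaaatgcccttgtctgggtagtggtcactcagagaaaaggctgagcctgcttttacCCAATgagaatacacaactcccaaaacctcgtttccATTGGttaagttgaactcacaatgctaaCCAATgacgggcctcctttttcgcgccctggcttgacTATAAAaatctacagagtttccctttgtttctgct
H2ac6: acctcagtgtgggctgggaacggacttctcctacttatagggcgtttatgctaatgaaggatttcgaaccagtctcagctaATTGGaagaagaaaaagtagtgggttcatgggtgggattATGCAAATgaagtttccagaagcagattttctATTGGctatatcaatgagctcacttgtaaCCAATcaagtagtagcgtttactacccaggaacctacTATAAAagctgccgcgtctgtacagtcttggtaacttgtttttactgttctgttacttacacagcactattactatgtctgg
The table held 52 of the 62 members. TATAAA was found in 57.7% of them and in 15.7% of all 27025 genes with a promoter window. A gene was counted if any of its windows matched. CCAAT was found in 84.6% against 41.1%, in every one of 17 H2A, 14 H2B and 10 H3 genes and in 3 of 11 H4 genes. The octamer, known as the site of OCT factors in H2B promoters, was found in 25% against 2.0%, in 6 H2A and 7 H2B genes and in none of the H3 or H4 genes. H2ac12 and H2ac6 hold all 3 motifs, H2ac11 holds CCAAT 5 times with neither of the others, and H4c9 holds TATAAA alone. A match is a run of letters and not a measured binding site.

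Members were also read by their GENCODE transcript models. The 23 genes whose model ends near the stem-loop had genotype ratios of 1.13, with overlap, and 1.49. The 16 genes whose model runs on more than 100 bases past the stem-loop had ratios of 1.76 and 2.25 without overlap. These models can be longer than the gene's span in the deposited data, as for H4c9 (727 against 403 bases) and H4c4 (1138 against 402). The ratios of this class therefore cannot be read as levels of the sequence past the stem-loop. The 3 genes with a model over 1 kb and no stem-loop had ratios of 3.04 and 3.48, most of it H2bc4. The remaining 15, short models without a stem-loop, had ratios of 1.45, with overlap, and 2.00. Some of these models are shorter than the gene's span in the deposited data, as for H4c12 (312 against 409 bases) and H2bc18 (381 against 493). A stem-loop beyond such a model could not be found, so this class does not show that its genes lack one. Differences between these classes were not tested, and the deposited values do not say which 3′ end was sequenced.

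The sums differed with the share of sequence that a member has in common with other genes, members or not. For 24 members at least 50% of the 100-base windows of their GENCODE transcripts occur in transcripts of other genes, and for 33 fewer do. Such a transcript can be longer than the gene's span in the deposited data, as for H3c4 (1249 against 504 bases). The shares, and with them the 2 sets, may thus differ from those of the sequence that was quantified. The 33 summed to 30.9, 33 and 37.6 TPM in untreated wild type, 33, 29.9 and 36.0 TPM in treated wild type, 63.8, 66.9 and 53.7 TPM in the untreated knockout and 67.2, 68.9 and 67.9 TPM in the treated knockout. Their genotype ratios were 1.82 and 2.07 without overlap, and the wild-type groups overlapped, with a ratio for etoposide of 0.98. The 24 summed to 31.8, 39.6 and 24.8 TPM in untreated wild type, 20.4, 20.7 and 21.8 TPM in treated wild type, 40.8, 29.4 and 41.0 TPM in the untreated knockout and 36.6, 37.0 and 36.1 TPM in the treated knockout. Their untreated genotypes overlapped (1.16), those with etoposide did not (1.74), and etoposide in wild type gave 0.666 with every treated library lower. The part of read sharing in these differences was not tested.

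**Figure D5:**
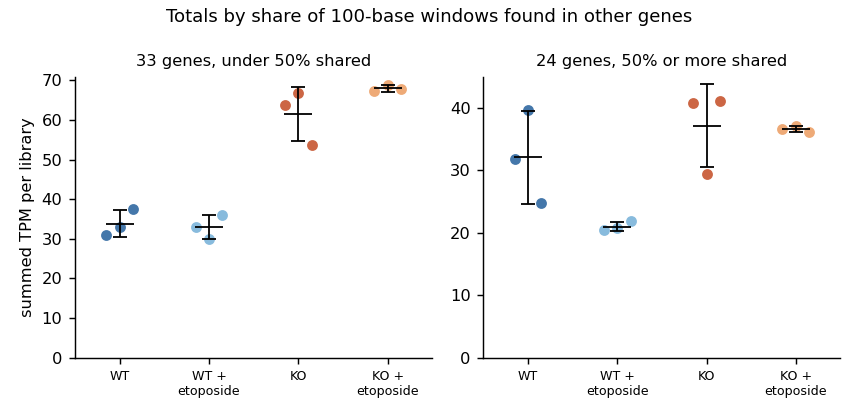
Summed TPM per library (y axis, each panel with its own scale from 0) of core histone genes with under 50% (33 genes) and with 50% or more (24 genes) of their 100-base windows in transcripts of other genes, in the 4 groups (x axis), with the mean and SD of 3. Windows are those of GENCODE transcripts, which can be longer than the span quantified. In the first set the genotypes stand apart and the wild-type groups overlap. In the second set treated wild type lies below all other groups.

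Genes that make, cut and use core histones were described from lists, whose counts stand beside 28.1% higher and 21.5% lower among all genes tested without etoposide, and 22.5% and 21.7% with it. Of 17 genes for transcription and 3′ end formation of histone messages, 3 rose and 5 fell in the untreated knockout, and 4 rose and 6 fell with etoposide. Cpsf3, the endonuclease that cuts histone and other precursor messages, went from 98.3 ± 3.69 to 54.2 ± 1.35 TPM (SD, n = 3 libraries), a change of -0.85 ± 0.04 (SE), adjusted p = 1.20e-08 (limma). Lsm10, a subunit of the U7 snRNP, fell by 0.65 ± 0.09 (SE) and Zfp473, which binds that particle, by 0.42 ± 0.06 (SE), with adjusted p of 6.39e-05 and 7.70e-05 (limma). Of 24 genes of S phase and DNA replication, 1 rose and 13 fell without etoposide and 0 and 12 with it. Their median change was -0.09, and Ccne1, the cyclin that starts S phase, fell by 0.33 ± 0.02 (SE), adjusted p = 1.02e-07 (limma). Of 19 histone chaperones 5 rose and 4 fell without etoposide, and 5 and 5 with it.

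Histone genes outside the rule, whose messages are mostly polyadenylated or which act between nucleosomes, were read for comparison. Their counts stand beside 28.1% higher and 21.5% lower among all genes tested without etoposide, and 22.5% and 21.7% with it. Of 9 replacement and variant histone genes 3 rose and 4 fell without etoposide. H2ax, whose message can end at the stem-loop or at a poly(A) site, rose from 575 ± 6.46 to 805 ± 47.5 TPM (SD, n = 3 libraries), a change of 0.48 ± 0.04 (SE), adjusted p = 3.49e-06 (limma). Of 6 linker histone genes tested, 4 rose and none fell without etoposide and 5 rose with it, H1f2 the most. H1f5, called in both comparisons, and H1f3, called with etoposide, averaged under 1 TPM in both wild-type groups and over 1 TPM in both knockout groups. They were tested because the knockout was high, and their calls are not independent of the limit.

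Other markers moved with genotype as well, beside 28.1% higher and 21.5% lower among all genes tested without etoposide, and 22.5% and 21.7% with it. All 6 marker genes of 2-cell-like cells, which are rare in embryonic stem cell cultures, rose, and their sum was 3.58 to 4.25 TPM in untreated wild type, 2.83 to 4.37 in treated wild type, 32.9 to 39.2 in untreated knockout and 33.9 to 40.9 in treated knockout libraries. Apart from Zscan4d, each of these genes averaged under 1 TPM in both wild-type groups and over 1 TPM in both knockout groups. Those genes were tested because the knockout was high, so their calls are not independent of the limit of 1 TPM. Of the 6 extraembryonic endoderm genes 3 were tested, 2 rose in untreated and 1 in treated knockout cells, and none fell. The 6 summed to 3.33 to 4.32, 5.10 to 7.16, 6.44 to 7.49 and 6.90 to 8.03 TPM in the same order, so the treated genotypes overlapped. Sox7, under the limit and not tested, had lower means in the knockout, 0.35 against 0.56 TPM untreated and 0.21 against 0.56 TPM treated. Of 10 p53 target genes, all rose in untreated knockout cells and 8 in treated ones. The part of these in the core histone differences was not tested.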

How the data were processed

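RNA of 12 libraries was measured. Per the labels, RNA was selected by its poly(A) tail, depleted of ribosomal RNA and made into strand-specific libraries. Trim Galore 0.6.6, cutadapt 3.4, HISAT2 2.2.1, StringTie 2.2.1 and the build GRCm39 are named per the submitters' processing notes. Whether quantification used the strand of the reads, and how it divided reads matching several genes, is not given in the sources used here. The authors' deposited TPM values are given per gene, per the file headers, scaled by length and to a fixed library total. The deposited FPKM values, made by the authors in the same step, served as an alternative. The deposited coverage signal, made by the authors as mean read depth per gene, gave the aligned bases together with FPKM.

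Entries sharing a gene ID were summed. Genes of mean TPM at least 1 (14107) entered limma 3.58.1 in R 4.3.3 on log2(TPM + 1), a log2 scale computed here from the deposited values, with 4 group means, a trend on abundance and Benjamini-Hochberg adjustment within each comparison. Family and cluster sums used no filter and no test. The code was tested on simulated data. Sequence tables were matched by gene symbol or gene identifier. Python 3.11.15 with pandas 2.3.3 and matplotlib 3.10.9 was used.

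The members, lists and rules were chosen with earlier results of these data known. Values in every library are given for H2bc4, H2ac12, the most abundant member of each family and up to 4 called members of lowest adjusted p per comparison, and up to 3 genes of lowest adjusted p from other lists. H2ac6, Trim17, H1f3, H1f5 and Sox7 were added after their values were seen. The labels call the replicates biological without describing separate cultures, so p-values speak only of the spread between libraries, which may be technical. Same-numbered libraries did not deviate together (r = -0.045 to 0.045 across genes), so the replicate number was an alternative only. The other alternatives were a pseudocount of 0.1, no filter, a mean TPM of at least 5, median-of-ratios and quantile scaling, only the 2 groups compared, leaving out each library and, for sums, leaving out H2bc4 or the members under 1 TPM. Sums without H2ac25, and over members with little shared sequence, were chosen after seeing the data.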

Additional observations from a re-analysis of the deposited data

Results flagged for a closer look

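The sum over the 62 core histone genes moved in opposite directions with etoposide in the 2 genotypes. All 3 treated wild-type libraries lay below all 3 untreated ones, while all 3 treated knockout libraries lay above all 3 untreated ones. On the log2 scale the etoposide change in the knockout exceeded that in wild type by 0.4252, and this difference was not tested. In the knockout the groups were barely separate, at 112.9 TPM for the highest untreated and 114.0 TPM for the lowest treated library. The knockout groups overlapped without H2ac25, with a ratio of 1.06, and over the members of mean TPM at least 1, with a ratio of 1.08. Over the 33 members with under 50% of their windows in other genes the wild-type groups overlapped, with a ratio of 0.98.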

How the results depend on the processing

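None of the 21 calls of single core histone genes changed sign under any alternative run, and 15 were called under every one that tested the gene; the other 6 are the untreated genotype calls of H2bc18 and H3c8, the treated ones of H2bc27, H3c10 and H4c8, and that of H2ac12 for etoposide in wild type. Fewer members were tested with a mean TPM of at least 5 (5 members) and with FPKM (8 members), and each then gave 3 higher of the genotype comparison without etoposide and 3 with it, against 8 and 11. Members lower with etoposide in wild type, 2 in the report, were 1 without a filter, 1 at a mean TPM of at least 5, 5 with quantile scaling, and 1 to 3 on leaving out a library. On leaving out a library, members higher with etoposide were 0 to 1 in wild type (1 without replicate 3 of treated wild type) and 0 to 1 in the knockout, and members lower in the knockout were 0 to 3. With the replicate number as a block, 7 were higher without and 11 with etoposide and 2 were lower with etoposide in wild type. The log2 ratio of sums between untreated genotypes, 0.6338, was 0.5203 without H2bc4 and 0.8605 over members with under 50% shared windows, and the one for etoposide in wild type, -0.2886, was -0.03632 over the latter. The cause of these changes was not tested beyond the fewer members tested. The median SE of the 26 members tested, 0.25, limits what single members can show, and 36 members were tested only with no filter.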

Other observations

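Among genes that handle histones, those with the lowest adjusted p moved in both directions between untreated genotypes (limma). Tonsl, which binds new histones at damaged forks, rose by 0.30 ± 0.04 (SE), adjusted p = 1.18e-04. Hjurp, the chaperone of the centromeric H3 variant, was at 0.27 ± 0.05 (SE), adjusted p = 8.80e-04, and Nap1l1, a chaperone of H2A and H2B, fell by 0.15 ± 0.02 (SE), adjusted p = 2.17e-04. Of the variants, H3f3b, which encodes the replacement histone H3.3, rose from 599.6 ± 8.39 to 734 ± 3.99 TPM (SD, n = 3 libraries), a change of 0.29 ± 0.02 (SE), adjusted p = 2.82e-07 in limma. Macroh2a1, a variant of H2A with a large extra domain, fell by 0.23 ± 0.03 (SE), adjusted p = 1.39e-04. Slbp, outside the rule for named genes and chosen after its values were seen, went from 151 ± 2.69 to 141 ± 1.67 TPM (SD, n = 3 libraries), a change of -0.10 ± 0.02 (SE), adjusted p = 0.00329 in limma. No member of these 3 lists was called for the interaction.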
